A study of Mus musculus with 4 samples.

Results

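Binding of NFIC in the pancreas of wild-type mice was mapped by ChIP-Seq, with 3 libraries for NFIC and 1 for input DNA, and the authors deposited 1 merged list of 15824 peaks on the genome build mm10. Of these, 792 peaks (5.01%, 95% Wilson confidence interval 4.68 to 5.36) were annotated by HOMER to an exon, and they are the peaks described here. They were taken by the annotated class alone, without use of any measured value. They fall into 507 peaks in coding exons, 198 peaks in 5′ UTRs and 87 peaks in exons of non-coding transcripts, and 11 of them lay on chromosome X (7 coding exon and 4 5′ UTR peaks). The mice were of mixed strain according to the labels, untreated as far as these state, and adult, with 8 to 12 weeks in the deposited description and 8 to 10 weeks in the study's text. Chromatin came from whole pancreas, so that binding in acinar, ductal, islet and other cells cannot be told apart, and a list of bound positions gives no expression level with which the tissue could be checked. The list holds no value for a single library. No spread between replicates can therefore be given, the sequencing depth behind a peak is unknown, and every interval below covers counting error of peaks, genes or sites only.

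NFIC is 1 of the 4 NFI proteins, *Nfia*, *Nfib*, *Nfic* and *Nfix* in the mouse, which bind DNA as dimers. Each subunit contacts one arm of a palindrome, TGGC on the left and GCCA on the right, across a spacer of 5 bases, and a single arm can be bound more weakly. Most binding by such factors is looked for in promoters and in distal enhancers. A peak in an exon lies in sequence that also has to be transcribed and, in a coding exon, to spell a protein. HOMER gives each peak 1 class, and the promoter-TSS class, from 1000 bp before a transcription start site (TSS) to 100 bp after it, takes precedence. The 5′ UTR peaks are thus those of the untranslated leader with a centre farther than 100 bp from the TSS, and the exonic classes leave out the core promoter.

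The sites below show the NFI full site as it lies in exonic peaks. It was found with at most 1 mismatch in 392 of the 792 exonic peaks and without mismatch in 103, so many of them hold none. Each line gives the 13 bases of the NFI full site (TGGCNNNNNGCCA) with the 8 bases to each side, 29 bases in all, on the strand of the gene in which the exon lies. Capitals mark those of the 8 fixed bases that match. Sequences and coordinates are from RefSeq GRCm38, the assembly of mm10. The first set holds exact sites within the coding sequence, and *Cyp4f39* and *Eps8l2* are among the 10 coding exon peaks with the highest score. The other 4 are exact sites from the following peaks in order of score and were chosen once their values had been seen.
*Cyp4f39*, exon 8 of 14, chr17:32483405-32483433, plus strand: ccgaggcaTGGCtgaaaGCCAagcagggc
*Eps8l2*, exon 19 of 21, chr7:141361724-141361752, plus strand: tccgcgccTGGCtggaaGCCAaggccttc
*Plch2*, exon 21 of 23, chr4:154986314-154986342, minus strand: ccccaaggTGGCcccctGCCAgccggagg
*Prrc2b*, exon 16 of 32, chr2:32213173-32213201, plus strand: tgggatgtTGGCcaccaGCCAaaggccgc
*Trim8*, exon 1 of 6, chr19:46502917-46502945, plus strand: cgagcaggTGGCtgtgtGCCAgtactgct
*F8a*, exon 1 of 1, chrX:73228525-73228553, plus strand: gctggctgTGGCgcgctGCCAgcaggcgc

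In 5′ UTR and non-coding exon peaks, the exact sites of highest score were these. They show the same arms in sequence that is not translated.
*Ltbp3*, 5′ UTR, exon 2 of 28, chr19:5741792-5741820, plus strand: tgtctcccTGGCcccggGCCAgcgtccca
*Ncoa7*, 5′ UTR, exon 1 of 16, chr10:30803146-30803174, minus strand: cgccgggcTGGCgtcgcGCCAccgcagct
*Dsel*, 5′ UTR, exon 1 of 2, chr1:111864766-111864794, minus strand: cccgcgggTGGCctcccGCCAagagagcc
*Rab43*, non-coding exon 3 of 3, chr6:87789372-87789400, minus strand: ggcaggctTGGCtgcctGCCAacagctgc
*Necap2*, non-coding exon 9 of 9, chr4:141067396-141067424, minus strand: cagtaagtTGGCaccttGCCAcactgttg
*Gm13112*, non-coding exon 5 of 5, chr4:154864344-154864372, minus strand: ctgcctcgTGGCaggaaGCCAgaaaggtc

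Several of the peaks with the highest scores had no exact site and were matched with 1 mismatch, which is the lower-case base within an arm below.
*Cmpk2*, coding exon 1 of 5, chr12:26469792-26469820, plus strand: ccagcttcTGGgctcctGCCAggaggcgg
*Lrg1*, coding exon 2 of 2, chr17:56120428-56120456, minus strand: tgccctccgGGCtcctcGCCAgcctcggc
*Gna14*, 5′ UTR, exon 1 of 7, chr19:16435986-16436014, plus strand: agcaagctTGGCaagtgGCCctgcctgca
*Trp53cor1*, non-coding exon 2 of 2, chr17:29058115-29058143, minus strand: ctggcaacTGGCtccttGgCAagtgccaa

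Where the exonic peaks lie was examined first. Each peak spans 172 bp from start to end, and the coding exons that hold one had a median length of 423 bp (quartiles 178 and 1226.5). For 276 of the 507 coding exon peaks (54.4%) the whole peak fitted into the exon, with any UTR of the exon included. The classes were checked against the RefSeq copy. The peak centre lay in coding sequence for 506 of 507 coding exon peaks and in a 5′ UTR for 194 of 198 5′ UTR peaks. It lay in the non-coding class for only 49 of 87 non-coding exon peaks, with 13 of the others in coding sequence, 12 in a 5′ UTR, 12 in a 3′ UTR and 1 in an intron of RefSeq transcripts. The non-coding exon class is thus not a class of non-coding genes, and its leading peaks include exons of *Rab43* and *Necap2*, which also have coding transcripts.

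Scaled to the length of exon available outside the promoter and transcript-end windows, the exonic classes held 19.2 peaks per Mb. The value was 78.5 peaks per Mb for 5′ UTRs, 16.8 for non-coding exons and 15.2 for coding exons. For non-coding exons the peaks and the length are not defined alike. The length leaves out bases that are also coding or UTR in RefSeq, while only 49 of the 87 peaks were centred in what remains. The value of 16.8 is therefore too high for that sequence. In comparison, it was 8.06 for 3′ UTRs, 6.74 for introns and 2.94 for intergenic sequence. The 5′ UTR value rests on 2.52 Mb of sequence that lies close to promoters, against 33.5 Mb of coding exons.

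The exonic peaks were then divided by their position within the gene. Of the 507 coding exon peaks, 156 (30.8%) were in a first exon, 228 (45.0%) in an internal exon, 88 (17.4%) in a last exon and 35 (6.9%) in the exon of a single-exon transcript. With the coding sequence divided into 3 parts of equal length, 232 of 506 peak centres (45.8%) were in the part next to the start codon, 144 in the middle part and 130 in the part next to the stop codon. The 5′ UTR peaks were in a first exon in 177 of 198 cases (89.4%). Of the non-coding exon peaks, 35 of 87 (40.2%) were in a last exon. The share of annotated exon length in each position was not computed, so the counts by exon have no background beside them. The exons that held a coding exon peak differed in length, with medians of 473 bp for first, 174 bp for internal and 1945 bp for last exons.

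Over the whole group, 412 of 792 peaks (52.0%, 48.5 to 55.5) had their centre within 1000 bp of the nearest TSS. The other 15032 peaks, most of which are intronic or intergenic, were at 26.1% (25.4 to 26.8). The annotated classes set part of this contrast, as all 3270 promoter-TSS peaks and 0 of the 4840 intergenic peaks were within 1000 bp. The share was 94.4% (90.3 to 96.9) for 5′ UTR peaks, 37.7% (33.6 to 42.0) for coding exon peaks and 39.1% (29.5 to 49.6) for non-coding exon peaks. None of the exonic peaks lay from 0 to 100 bp past a TSS, as the precedence of the promoter class requires. The next 100 bp, up to 200 bp, held 158 of them (19.9%), with 94 5′ UTR, 52 coding exon and 12 non-coding exon peaks. A further 170 lay from 201 to 500 bp and 84 from 501 to 1000 bp. At the other end, 203 peaks (25.6%) were over 3000 bp downstream of the nearest TSS and 95 (12.0%) over 1000 bp upstream of it. Counts were highest next to the edge of the promoter class, while 251 of the 507 coding exon peaks (49.5%) lay upstream of the nearest TSS or over 3000 bp past it.

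**Figure D1:**
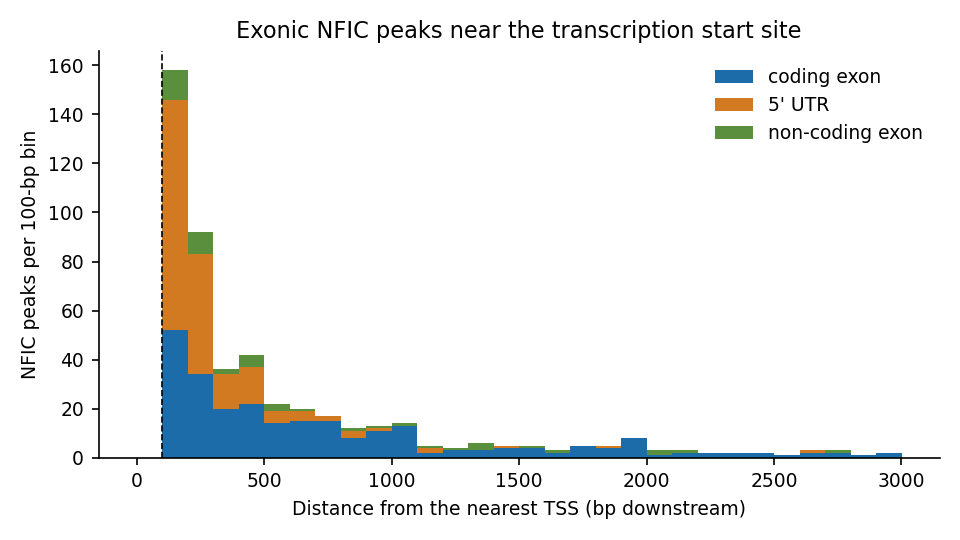
Number of exonic NFIC peaks per 100-bp bin (y axis) by the distance of the peak centre downstream of the nearest TSS (x axis, bp), stacked by class, with a dashed line at 100 bp where the promoter-TSS class of HOMER ends. The 298 peaks upstream of the TSS or beyond 3000 bp are not drawn. The bin next to the line is the highest, with 158 peaks, of which 94 are 5′ UTR peaks.

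Because the boundary at 100 bp is set by the annotation and not by the binding, peaks on each side of it were compared. The sides are not alike. Intron peaks past the boundary were left out, while promoter-TSS peaks were taken whatever sequence they lie in. The 158 exonic peaks in the 100 bp past the boundary had a median score of 5.58 and a median GC content of 70.5%. The 679 promoter-TSS peaks from 0 to 100 bp had a median score of 5.98 and a median GC content of 68.5%. The NFI full site was present in 41.1% (33.8 to 48.9) of the former and in 27.2% (24.0 to 30.7) of the latter. The intervals of these shares do not overlap, and the same held for the exact site, with 6.96% (3.93 to 12.0) and 2.36% (1.46 to 3.79). The SP motif (GGGCGG), the GC box of promoters, was present in 57.6% and 60.8%.

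Peak scores were compared next. The score is the authors' own and its scale is not stated, so it is used here to rank peaks within the list. The median was 6.37 (quartiles 4.78 and 8.56, range 3.39 to 33.9) for the exonic peaks and 6.57 (4.98 and 9.16) for the other peaks. By class it was 6.37 for coding exons, 6.17 for 5′ UTRs and 5.98 for non-coding exons, next to 6.77 for introns, 6.57 for intergenic peaks and 6.37 for promoter-TSS peaks. The upper 2 quartiles of score of the whole list held 377 of the 792 exonic peaks (47.6%, 44.1 to 51.1) and 51.9% (51.1 to 52.7) of the others. The intervals of these shares meet at 51.1, and the difference in median is small beside the range of scores in each class. Focus ratio, the fraction of the tags of a peak that HOMER finds placed around its centre, had a median of 0.667 in exonic peaks and 0.685 in the others.

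**Figure D2:**
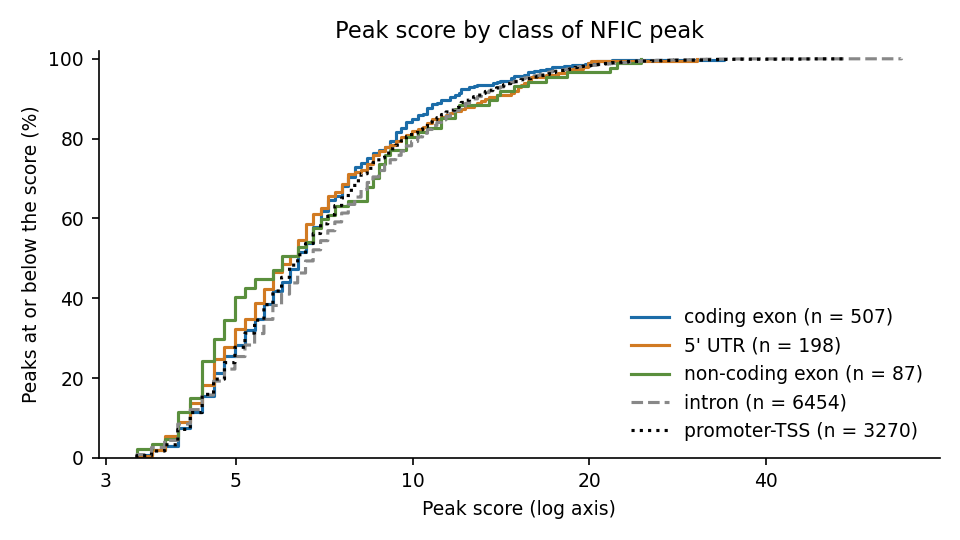
Share of peaks at or below a given peak score (y axis, %) against the score (x axis, log scale, no unit stated) for the 3 exonic classes, introns and promoter-TSS peaks. The curves lie close together, with medians from 5.98 for non-coding exon peaks to 6.77 for intron peaks.

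Within coding exons the score differed by place. The 191 coding exon peaks within 1000 bp of a TSS had a median of 5.98, and the 316 beyond it a median of 6.67. Of the former, 41.4% (34.6 to 48.4) were in the upper 2 quartiles of the list, compared with 52.8% (47.3 to 58.3) of the latter, and the intervals overlap. Peaks of last exons had the highest median (7.17, quartiles 5.73 and 9.76, with 62.5% in the upper 2 quartiles, 52.1 to 71.9). Those of first exons had the lowest (5.68, 38.5%, 31.2 to 46.3), and the intervals of first and last exons do not overlap. Internal exons were between them at 6.47. Base composition moved with place too, and its part in the score was not tested. Median GC content was 70.8% in first, 56.5% in internal and 64.8% in last exon peaks.

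The coding exon peaks with the highest scores were in genes of varied function. The first 2 stood apart from the rest. *Cyp4f39*, a cytochrome P450 of the family that hydroxylates fatty acids at the omega end, had a peak of score 33.9 in exon 8 of 14 (chr17:32483326-32483498). *Cmpk2*, a mitochondrial kinase for pyrimidine nucleotides, had one of score 32.3 in exon 1 of 5 (chr12:26469716-26469888), 587 bp past the TSS. Scores then dropped to 21.9 for exon 2 of 2 of *Lrg1*, a secreted leucine-rich glycoprotein, and to 20.5 for exon 1 of 4 of *Tnfsf15*, a cytokine of the TNF family. *Eps8l2*, an actin regulator, and *Zscan18*, a zinc finger protein, both had a peak of score 20.3, in exon 19 of 21 and exon 1 of 6. They were followed by *Ino80*, the ATPase of a chromatin remodelling complex (19.9, exon 31 of 36), and by *Mboat4*, the acyltransferase that modifies ghrelin (19.7, exon 3 of 3). *Nol3*, an apoptosis repressor, and *Ttc16*, a tetratricopeptide repeat protein, closed the 10 with 18.7 and 18.1. Of these 10 peaks, 8 had an NFI full site, 2 of them an exact one, 3 lay within 1000 bp of a TSS, and 3 were nearest to the TSS of another gene. *Zscan18* and *Ino80* were the 2 with no full site in the window of 200 bp. The *Zscan18* peak lay 945 bp from the TSS in the authors' annotation and 5958 bp from the nearest transcript start of the RefSeq copy.

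Among 5′ UTR peaks, the highest score belonged to *Gna14*, an alpha subunit of the Gq class of G proteins (30.5, 321 bp past the TSS, chr19:16435902-16436074). Others were *Ltbp3*, a binding protein of latent TGF-beta (20.1), *H2-DMa*, a chaperone of peptide loading on MHC class II (19.9), and *Pm20d2*, a peptidase (19.9). *Edn2*, an endothelin (18.7), *Ncoa7*, a nuclear receptor coactivator (18.3), and *Clip2*, a microtubule linker (17.7), had lower scores. *Zer1*, a substrate receptor of a ubiquitin ligase (16.9), and, with equal scores of 15.9, the pseudokinase gene *Nrbp2* and the cell cycle factor gene *E2f2* had the lowest scores of the 11. The full site was present in 9 of the 11 and the exact site in 2 (*Ltbp3* and *Ncoa7*). *H2-DMa* and *Pm20d2* had none. The *H2-DMa* peak was also the only 1 of the 11 that was over 1000 bp from the nearest TSS, at 9935 bp.

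The 5 highest non-coding exon peaks were those of *Trp53cor1*, a long non-coding RNA induced by p53 (24.5, last exon, 21011 bp from the TSS), and of non-coding transcripts of *Rab43*, a small GTPase (22.3), and *Necap2*, an endocytosis factor (21.7). The other two were in *5031425E22Rik* (18.3) and *Gm13112* (16.9). All 5 had a full site, 3 of them exact, and the window of *Necap2* held 4. None was within 1000 bp of a TSS in the authors' annotation, although the *5031425E22Rik* peak, 1366 bp from that TSS, was 349 bp from the nearest transcript start of the RefSeq copy. These values cover the top of each class only, and the share with a site over each whole class follows.

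The NFI full site, allowing 1 mismatch among the 8 fixed bases, was searched in the 200 bp centred on each peak. It was present in 392 of the 792 exonic peaks (49.5%, 46.0 to 53.0), and in 51.9% (51.1 to 52.7) of the other peaks. By class the share was 52.7% (48.3 to 57.0) in coding exon, 50.6% (40.3 to 60.8) in non-coding exon and 40.9% (34.3 to 47.9) in 5′ UTR peaks. As a background, windows of the same length centred on exons of the annotation held the site in 9.56% of 205311 coding exon windows, 10.3% of 42365 5′ UTR windows and 8.89% of 29618 non-coding exon windows. These windows are not matched on GC content, with a median of 50.5% in coding exon windows and 62.5% in coding exon peaks. They also cover exons inside the promoter-TSS window, which the exonic classes of peak leave out. An exact site was present in 78 coding exon (15.4%, 12.5 to 18.8), 14 non-coding exon (16.1%, 9.83 to 25.2) and 11 5′ UTR peaks (5.56%, 3.13 to 9.67). In the annotated windows it was present in 0.446%, 0.452% and 0.434%, in the same order of classes. The share of 5′ UTR peaks with an exact site lay next to the 4.83% (4.15 to 5.62) of promoter-TSS peaks, and that of coding exon peaks next to the 16.2% (15.4 to 17.2) of intron peaks.

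Distance from the TSS divided the coding exon peaks in the same way. Beyond 1000 bp, 57.3% (51.8 to 62.6) had a full site and 20.6% (16.5 to 25.4) an exact one. Within 1000 bp the shares were 45.0% (38.1 to 52.1) and 6.81% (4.02 to 11.3). The intervals of the exact site do not overlap, while those of the full site overlap at the edge. Intron peaks beyond 1000 bp had 57.5% (56.2 to 58.7) and 16.8% (15.8 to 17.7), and the intervals of both shares overlap with those of coding exon peaks at that distance. Intron peaks within 1000 bp had 51.3% (47.4 to 55.2) and 11.3% (9.01 to 14.0). Among coding exons, internal exons had a full site in 62.3% of the peaks (55.8 to 68.3) and first exons in 40.4% (33.0 to 48.2). Last exons were at 46.6% (36.5 to 56.9) and single exons at 60.0% (43.6 to 74.4).

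**Figure D3:**
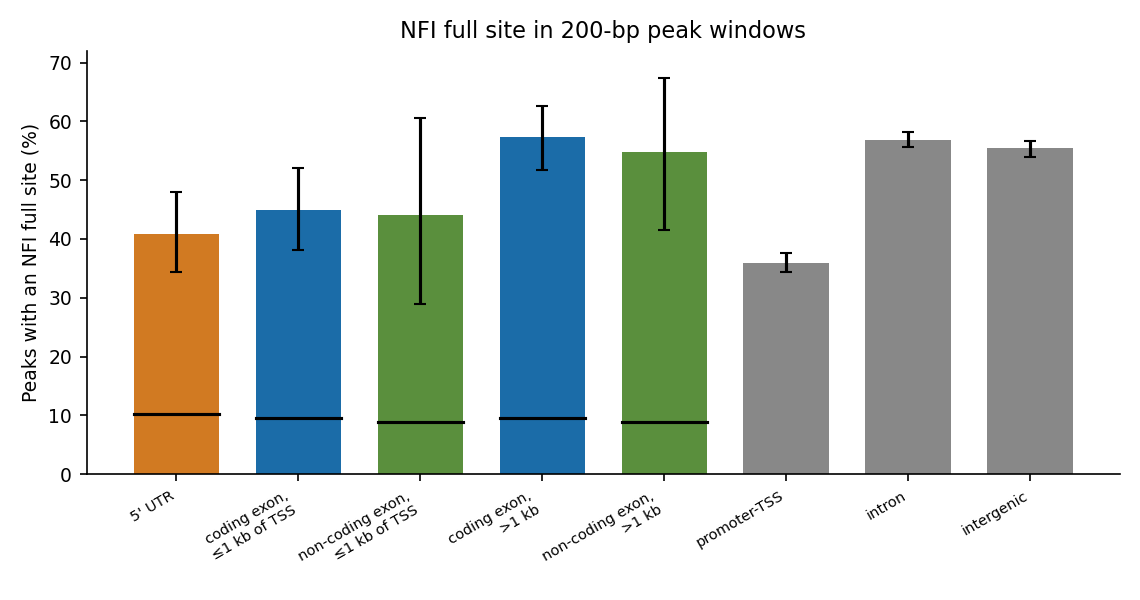
Share of peaks with an NFI full site (y axis, %) by class, with exonic classes in colour and other classes in grey. Error bars are 95% Wilson intervals, and black lines give the share in windows on all annotated exons of the class, from 8.89% to 10.3%. Coding exon peaks beyond 1 kb of a TSS stand at 57.3%, next to 56.9% for introns, and 5′ UTR peaks at 40.9%, next to 35.9% for promoter-TSS peaks.

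The share with a site also moved with the score. Of the exonic peaks in the highest quartile of score of the whole list, 72.9% (65.9 to 78.9) had a full site. The share was 51.0% (44.1 to 57.8) in the second quartile, 39.3% (32.8 to 46.2) in the third and 38.3% (32.1 to 45.0) in the lowest. In the other peaks the shares were 67.8%, 51.1%, 44.5% and 43.4%, and each of them lies within the interval of the exonic peaks of that quartile. The exact site did not follow this order. It was most frequent in exonic peaks of the second quartile, with 17.5% (12.9 to 23.4), and was present in 13.0% (8.82 to 18.7) of the highest.

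Sites were described by their distance from the middle of the peak. Where a window held more than 1 site, the best one had the fewest mismatches and, among equals, lay nearest to the peak centre. This choice favours central positions, and no value for evenly placed sites was computed. The best site of each of the 392 peaks was at a median of 27 bp from the peak centre, and 48.0% were within 25 bp of it, where the other peaks with a site had 24 bp and 52.2%. The median was 25 bp for coding exon, 31 bp for non-coding exon and 32 bp for 5′ UTR peaks. More than 1 site was found in 64 of the 792 exonic peaks (8.08%). 

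**Figure D4:**
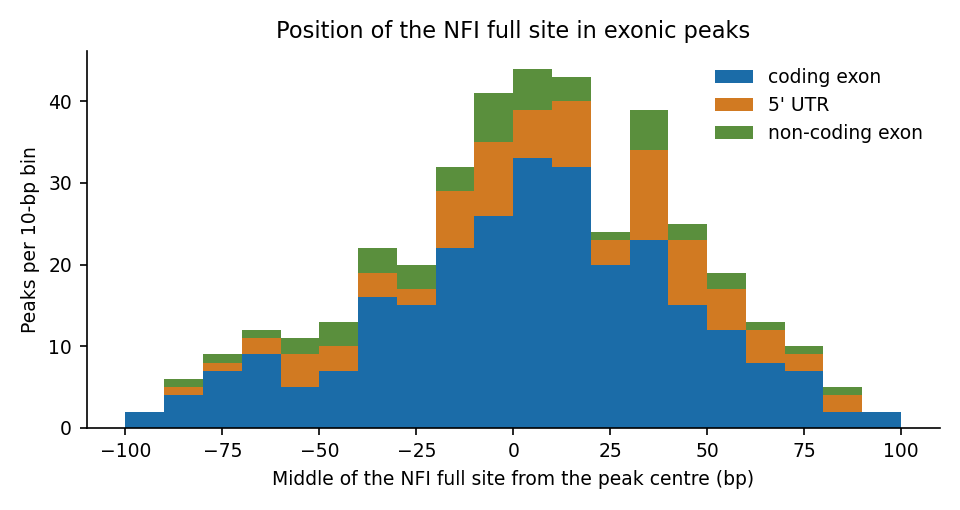
Number of exonic peaks per 10-bp bin (y axis) by the distance of the middle of the best NFI full site from the peak centre (x axis, bp, negative towards lower genome coordinates), stacked by class. The counts are highest near 0, and 48.0% of the 392 sites are within 25 bp.

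Whether the site itself, and not only the peak centre, is in the exon was then asked. Of the 267 coding exon peaks with a full site, 241 (90.3%, 86.1 to 93.3) had the whole site within coding sequence, and 363 of the 392 sites of all exonic peaks (92.6%, 89.6 to 94.8) were within an exon. The 5′ UTR sites were in an exon in 95.1% and in coding sequence in 4.94% of cases. The remaining 26 sites of coding exon peaks lay wholly or in part outside coding sequence. High shares are partly set by the rules, since the peaks were taken by a centre in an exon and the best site favours central positions. No share for evenly placed positions was computed, so these values describe where the sites lie and test nothing.

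A full site within coding sequence is read in 1 of 3 frames. For an exact site with its first base at codon position 1, TGG encodes tryptophan and the right arm begins with an alanine codon. At position 2, the left arm carries an alanine codon, and at position 3 it carries a glycine codon (GGC) and the right arm ends with a proline codon (CCA). With 1 mismatch allowed, these codons can differ. Of 240 such sites of coding exon peaks with a known frame, 65 (27.1%, 21.9 to 33.0) began at position 1, 123 (51.2%, 45.0 to 57.5) at position 2 and 52 (21.7%, 16.9 to 27.3) at position 3. Of all 20994 such sites in the longest coding sequence of each gene, 24.1%, 45.4% and 30.5% did. The sets are not alike. Each peak gave its best site only, by fewest mismatches, and 69 of the 240 were exact. The coding sequences gave every site, promoter windows included, and 1027 of the 20994 were exact. Position 2 was thus the most frequent one in both, and position 3 was the only one at which the share of all coding sites lay outside the interval of the peaks. For exact sites the counts were 17, 35 and 17 of 69 in peaks (24.6%, 50.7% and 24.6%), beside 23.8%, 49.7% and 26.6% of 1027 sites, which lie within the intervals of the peaks. The printed sites of *Cyp4f39* and *Eps8l2* begin at position 1, at codons 295 and 639. Those of *Plch2*, *Trim8* and *F8a* begin at position 2, and that of *Prrc2b* at position 3.

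The question was next turned round, to ask how many of the exact sites of the genome lie in the window of a peak. Of 994 exact sites in coding exons outside the promoter and transcript-end windows, 80 (8.05%, 6.51 to 9.91) did. The share was 18.3% (10.6 to 29.9) of 60 sites in 5′ UTRs and 7.83% (4.17 to 14.2) of 115 sites in non-coding exons. In introns it was 6.47% (6.11 to 6.85) of 16631 sites and in intergenic sequence 3.50% (3.26 to 3.76) of 20964. In the promoter-TSS class it was 24.1% (21.1 to 27.4) of 700. The interval of coding exons overlaps with that of introns and lies above that of intergenic sequence. Beyond 1000 bp of a TSS, 66 of 864 coding exon sites (7.64%, 6.05 to 9.60) and 6.15% (5.79 to 6.53) of intron sites were in a peak window, and the intervals overlap. Within 1000 bp, 14 of 130 coding exon sites (10.8%, 6.52 to 17.3) were, below the 23.5% (19.1 to 28.5) of 307 intron sites, with intervals that do not overlap. Most 5′ UTR sites were near a TSS. Within 1000 bp, 10 of 42 of them (23.8%, 13.5 to 38.5) were in a peak window, a share next to that of intron sites. Beyond 1000 bp, 1 of 18 was (5.56%, 0.988 to 25.8).

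**Figure D5:**
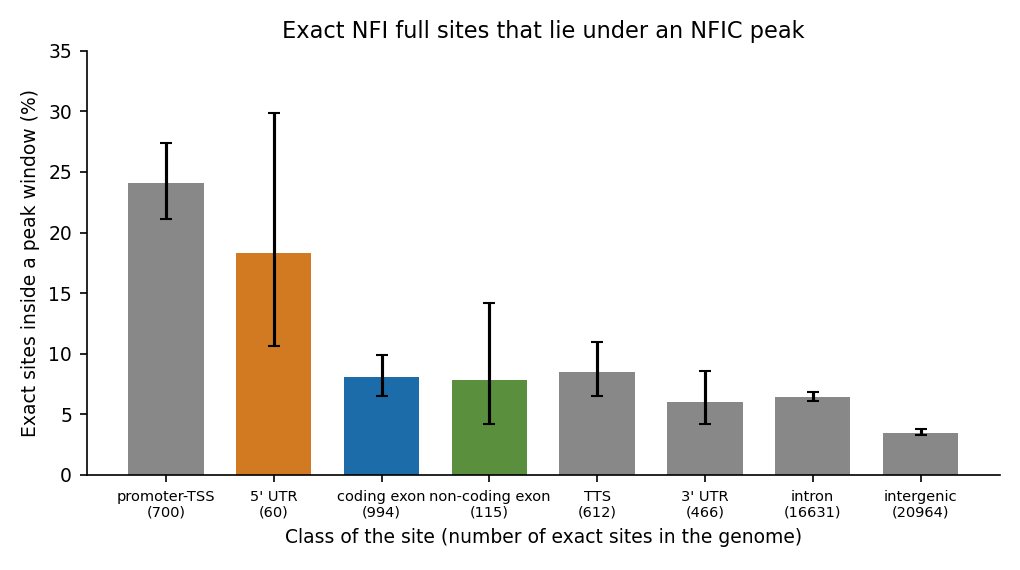
Share of the exact NFI full sites of the genome that lie in the 200-bp window of an NFIC peak (y axis, %) by the class of the site (x axis, with the number of sites). Error bars are 95% Wilson intervals. Coding exon sites (8.05%) are near intron sites (6.47%), and 5′ UTR (18.3%) and promoter-TSS sites (24.1%) are above them. Classes are not matched on distance from the TSS, and 42 of the 60 5′ UTR sites are within 1000 bp of one.

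Other sequence features of the windows were described by fixed motifs, searched on both strands. A match is no evidence of a bound factor. GC content had a median of 68.0% in 5′ UTR, 62.5% in coding exon and 58.5% in non-coding exon peaks, where intron peaks had 52.0% and promoter-TSS peaks 65.0%. The observed over expected CpG ratio was 0.798 in 5′ UTR peaks, 0.867 in coding exon peaks within 1000 bp of a TSS and 0.402 in those beyond it. Intron peaks as a whole were at 0.218. The SP motif (GGGCGG) was present in 55.6% (48.6 to 62.3) of 5′ UTR peaks, 38.7% (32.1 to 45.8) of coding exon peaks within 1000 bp and 14.6% (11.1 to 18.9) of those beyond it. All annotated 5′ UTR and coding exon windows, those inside the promoter-TSS window included, had it in 26.2% and 6.70%. Near a TSS other classes had similar features. Intron peaks within 1000 bp had a CpG ratio of 0.617 and the SP motif in 39.5% (35.7 to 43.5), and promoter-TSS peaks had 0.770 and 58.6% (56.9 to 60.2). These features thus moved with distance from the TSS, in introns as in coding exons.

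Coding exon peaks beyond 1000 bp were then compared with intron peaks at that distance for motifs of factors active in acinar cells. The GATA motif (GATAAG) was present in 4.43% (2.66 to 7.30) of the coding exon and 9.67% (8.94 to 10.5) of the intron peaks. The FOX motif (TGTTTAC) was present in 0.949% (0.323 to 2.75) and 5.05% (4.52 to 5.64). NR5A2 (CAAGGTCA) was present in 2 of 316 coding exon peaks (0.633%, 0.174 to 2.28) and in 2.24% (1.89 to 2.65) of intron peaks, where the intervals overlap. All coding exon windows of the annotation held GATA in 5.30%, FOX in 2.05% and NR5A2 in 1.31%, and each of these shares lies within the interval of the coding exon peaks. The E-box CAGCTG, a site of bHLH proteins, went the other way, with 30.7% (25.9 to 36.0) of the coding exon and 24.2% (23.1 to 25.3) of the intron peaks, and 15.1% of all coding exon windows. Its intervals do not overlap, as was the case for GATA and FOX. The single NFI arm TTGGCA, which can overlap with a full site, was present in 31.6% (26.8 to 37.0) of the coding exon and 40.1% (38.9 to 41.4) of the intron peaks. Base composition differs between these sets, with a median GC content of 58.5% and 51.5%, and its part in these shares was not tested.

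Each peak is assigned in the list to the gene of the nearest TSS, which need not be the gene whose exon is bound. Of 789 exonic peaks with a transcript in the annotation, 153 (19.4%, 16.8 to 22.3) were assigned to another gene. The share was 24.3% (20.7 to 28.2) for coding exon and 33.3% (24.2 to 43.9) for non-coding exon peaks, and 2 of 198 (1.01%, 0.277 to 3.61) for 5′ UTR peaks. For coding exon peaks beyond 1000 bp it was 120 of 316 (38.0%, 32.8 to 43.4), with a median distance of 11900 bp to the TSS of the other gene, and 79 of these peaks were upstream of it. Intron peaks of all distances were at 23.5% (22.4 to 24.5). The peak in exon 8 of *Cyp4f39* was nearest to the TSS of *Cyp4f17*, another P450 of the same family, 23050 bp upstream of it. The peak in exon 31 of *Ino80* was assigned to *Chac1*, a glutathione-degrading enzyme induced in the unfolded protein response, with its TSS 31628 bp away. The *Eps8l2* peak was assigned to *B230206H07Rik*, and among the non-coding exon peaks *Rab43* was assigned to *Gp9*, *Necap2* to *Crocc* and *Gm13112* to *Mmel1*.

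By the gene of the exon, 764 genes held an exonic peak, which is 2.92% (2.72 to 3.13) of the 26180 genes of the annotation. Of these genes, 115 (15.1%) also had a promoter-TSS peak and 239 (31.3%) an intron peak placed in them. In 440 (57.6%) no peak of another class was placed. The shares of all genes with a promoter-TSS or an intron peak were not computed, so these counts have no background beside them. Most of the 764 genes held a single exonic peak. There were 2 in 23 genes and 3 in 1 gene, *Tbc1d4*, the Rab GTPase-activating protein of insulin-stimulated glucose transporter traffic. The 3 peaks were in its 5′ UTR (score 7.17, chr14:101608633-101608805), in coding exon 1 (6.57, chr14:101608137-101608309) and in coding exon 5 (4.18, chr14:101494295-101494467) of 19, and the full site was present in the windows of both coding exon peaks. Of the genes with a leading peak, *Edn2*, *Ltbp3* and *Trp53cor1* held a second, weaker one. It was in coding exon 3 of 5 of *Edn2* (11.8, with a full site), coding exon 16 of 28 of *Ltbp3* (4.38, no full site) and exon 1 of 2 of *Trp53cor1* (4.38, no full site). Over the whole list of exonic peaks, 8 pairs of neighbours were within 1000 bp of each other.

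Gene lists were used to see which families hold an exonic peak, by the gene of the exon. A peak of any class was placed at 37.3% of all genes of the annotation, and an exonic one in the 2.92% given above. That share counts genes without any peak as well. Of the 9766 genes with a peak of any class, 764 held an exonic one. A comparison with 2.92% therefore does not separate an exonic peak from a peak of any kind. None was exonic in the lists of the secretory machinery, autophagy and ribosomal proteins. Among digestive enzymes and secretory proteins, 23 of 40 had a peak of any class and 0 an exonic one (0%, up to 8.76). For genes of ER stress and the unfolded protein response the numbers were 30 and 0 of 39, for autophagy 22 and 0 of 38, and for ribosomal proteins 27 and 0 of 89 (upper bounds 8.97%, 9.18% and 4.14%). The share of all genes, 2.92%, lies within the intervals of all 4 lists, so at these list sizes a count of 0 is not distinguishable from the background.

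Of the 17 acinar transcription factors, which all had a peak of some class beside the 37.3% of all genes, 2 had an exonic one (11.8%, 3.29 to 34.3). The interval lies just above the share of all genes, and it rests on these 2 genes. Because all 17 had a peak of some class, it does not show a preference for exons. *Nr5a2*, a nuclear receptor of acinar cells, had a peak in its last coding exon (score 4.78, exon 9 of 9, chr1:136845453-136845625, 108091 bp from the TSS). *Tcf3*, an E protein partner of the bHLH factor PTF1A, had one in the 5′ UTR (3.98, 138 bp from the TSS). Neither had a full site, and both scores lie in the lowest quartile of the list. *Nr5a2* was also among 3 of 48 nuclear receptors (6.25%, 2.15 to 16.8, which holds the share of all genes), with *Rara*, a retinoic acid receptor (7.77, 5′ UTR), and *Nr2f6*, an orphan receptor (7.17, 5′ UTR). None of these 3 had a full site.

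Of the NFI genes themselves, which all had a peak of some class, *Nfix* had an exonic one (1 of 4 genes, interval 4.56% to 69.9%). The interval lies above the 2.92% of all genes, but it rests on this 1 gene and on a list in which every gene had a peak. The *Nfix* peak was in the 5′ UTR (7.57, chr8:84773850-84774022, 433 bp past the TSS) and had no full site. In the KLF and SP family, 2 of 26 genes had one (7.69%, 2.14 to 24.1), namely *Klf9*, a target of steroid hormones (12.1, coding exon 1 of 2, with a full site of 1 mismatch), and *Klf1*, the erythroid member (3.78, coding exon 2 of 3, none). Among clock genes *Bhlhe41* was the 1 of 23 (4.35%, 0.772 to 21.0), in its last coding exon (6.37, no full site). The share of all genes, 2.92%, lies within the intervals of both of these lists.

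Corepressors gave 2 of 20 genes (interval 2.79% to 30.1%) and histones 2 of 73 (2.74%, 0.755 to 9.45), and both intervals hold the 2.92% of all genes. *Tle6* had a peak in coding exon 12 of 14 (7.97) with an exact site. *Tle1*, a Groucho corepressor, had 2 peaks, in coding exons 12 and 13 of 20 (7.57 and 5.58), each with a full site of 1 mismatch. The histone genes were both of linker histones, with *H1f0* in the 5′ UTR (9.36, no full site) and *H1f2*, listed as *Hist1h1c*, in the single coding exon (4.98, 1 mismatch).

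Among zinc finger proteins, 15 of 479 genes (3.13%, 1.91 to 5.10) held an exonic peak, close to the share of all genes. The 5 with the highest scores were *Zscan18* (20.3), *Zfp703* (11.2), *Zfp704* (8.76), *Zfp251* (7.57) and *Zfp367* (7.17), and a full site was present in *Zfp703*, *Zfp251* and *Zfp367*. The 1110 olfactory receptor genes, most of which consist of a single coding exon, held none (upper bound 0.345%), and 11 of them (0.991%) had a peak of another class. Of the 13 lists, this is the only one whose interval lies below the share of all genes. As so few of these genes had any peak, this does not single out exonic peaks.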

How the data were processed

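NFIC ChIP-Seq was made from mouse pancreas (3 libraries, 1 input). Per the labels, the submitters' processing notes name BWA, Picard, MACS2 and mm10. In a paragraph that opens with downloaded data, the study's methods give RUbioSeq+ as the aligner and caller, then HOMER as the tool that merged replicates, annotated and also called peaks. These sources differ on the caller of the NFIC peaks, on which the meaning of the score depends. Its thresholds are not given in the sources used here, and the file header shows annotation by HOMER. The authors deposited 1 peak list, whose peak score has no stated scale and whose focus ratio is a fraction of tags. It has 0 columns with values per sample, so depth is unknown and no test over samples was possible.

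Exonic peaks were taken by annotated class. Motifs were matched as fixed letters in 200-bp windows. Gene, exon and coding frame came from a RefSeq copy of GRCm38, with 45756 transcripts, whose release may differ from the one the authors used. Exon lengths for densities leave out the windows around transcript starts and ends. Shares have 95% Wilson intervals. Named are the 10 highest-scoring coding exon and 5′ UTR peaks and the 5 highest non-coding exon peaks, ties kept, genes with 3 or more exonic peaks, and up to 5 exonic genes per list. A gene that this rule names is not reported here. The members and the 13 gene lists were chosen with earlier results of these data known. The steps were tested on simulated data, where 100% of planted sites in 500 windows were found. Python 3.11, numpy 2.4.6, pandas 2.3.3, scipy 1.17.1, pysam 0.24.0 and matplotlib 3.10.9 were used.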

Additional observations from a re-analysis of the deposited data

How the results depend on the processing

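Of 56 values computed under another choice, 33 stayed within the interval of the reported share or median, or within 1.5 times the count or density. Leaving out chromosome X, requiring at least 0.5 of the peak length in exons, or dropping peaks near a stronger one moved none. The upper 2 quartiles of score left 377 peaks (246 coding exon, 90 5′ UTR and 41 non-coding exon), 9.16 per Mb, of which 61.3% had a full site and 46.7% were within 1000 bp of a TSS, with a median score of 8.76 by construction. With the class of the peak centre taken from RefSeq, without the precedence of the promoter class, there were 1720 peaks (892 5′ UTR and 181 non-coding exon), 36.8 per Mb, of which 38.8% had a full site and 75.0% were within 1000 bp. Beyond 1000 bp of the TSS, 56.8% had a full site, 37.6% were nearest to another gene, and the median score was 6.77. The share with a full site was 13.0% with no mismatch, 92.6% with at most 2, 36.5% in windows of 100 bp and 58.3% in windows of 400 bp. It is therefore a value of this definition of the site. Within 500 bp and 2000 bp of the TSS were 41.4% and 60.1% of the peaks. No paired analysis was possible because the list has no values per library, and for that reason no replicate could be left out.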
